A study of Mus musculus with 12 samples.

Results

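Genes of intestinal intraepithelial lymphocytes, 10 in number and named Ptprc, Cd3d, Cd3e, Cd3g, Cd8a, Cd8b1, Gzma, Gzmb, Itgae and Ccl5, were followed through the peak lists of mouse small-intestinal crypts and villi. The 10 members were chosen by name out of 21951 protein-coding genes in GENCODE M21, on the mouse assembly GRCm38 (mm10). For each gene, peaks were collected over the gene body plus 5 kb on either side. The series, from a study of histone H3 clipping in the intestine, holds 12 libraries. Villi were scraped from the opened small intestine with glass coverslips, and crypts were detached mechanically from the remaining tissue after incubation in EDTA. Chromatin of each was immunoprecipitated with antibodies against H3K4me3, H3K4me1, H3K27me3, H3K9me2 or H3K9me3, or kept as input, with 5% of Drosophila S2 chromatin added beforehand. Strain, age, treatment and number of mice are not given in the sources used here for these libraries, no sorting of cells is described, and there was 1 library per compartment and modification. Differences between crypts and villi therefore have no replicate check and no test.

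Intraepithelial lymphocytes are mostly T cells that sit between the epithelial cells of the gut, more often in villi than in crypts, and are thus taken along when epithelium is detached. They carry a T cell receptor with the CD3 chains, often CD8 as an alpha homodimer, the integrin CD103 that binds E-cadherin on epithelial cells, and granules loaded with granzymes. H3K4me3 marks promoters of genes in use or poised for use, H3K4me1 enhancers, H3K27me3 promoters held by Polycomb and H3K9me3 heterochromatin. A called peak in a mixed tissue gives the presence of a modification above the input in the preparation as a whole, so fewer cells of a type and less modification per cell cannot be told apart.

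Epithelial genes gave the reference for both preparations. All 12 genes on a list of epithelial markers had an H3K4me3 peak within 1 kb of a start site in crypts and in villi, against 57.7% and 57.9% of all protein-coding genes. At Vil1, which encodes the microvillus protein villin, this peak was 7085 bp wide in the crypts list and 8368 bp in the villi list. At Krt20, a keratin of differentiated enterocytes, it was 5437 bp and 9376 bp wide. Among 1135 olfactory receptor genes, 2 had such a peak in crypts and 1 in villi.

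At the start sites of the lymphocyte genes, H3K4me3 was called in villi and not in crypts. Of the 10 genes, 6 carried a villi H3K4me3 peak within 1 kb of a start site, namely Ptprc, Cd3e, Cd3g, Cd8a, Gzma and Ccl5, and 0 carried one in crypts. Their scores were low, and 2 of the 6, Ptprc and Gzma, were left when the villi list was shortened to the length of the crypts list, and 0 in the top 50% of the list. A peak in villi without one in crypts was found at 278 of all protein-coding genes (1.27%), and the opposite at 234 (1.07%). Cd3d, Cd8b1, Gzmb and Itgae had no H3K4me3 peak at a start site in either compartment, as had 41.0% of all genes. Counted over the whole window, 8 genes had an H3K4me3 peak in villi (63.6% of all genes) and 2 in crypts (63.2%), with 6 in villi and not in crypts (1.49%). The 2 in crypts, at Cd3g and Itgae, lay at the start sites of other genes, Ube4a and Haspin. Cd8b1 and Gzmb had no peak of H3K4me3, H3K4me1, H3K27me3 or H3K9me3 in their windows in either compartment, as had 22.5% of all genes.

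**Figure D1:**
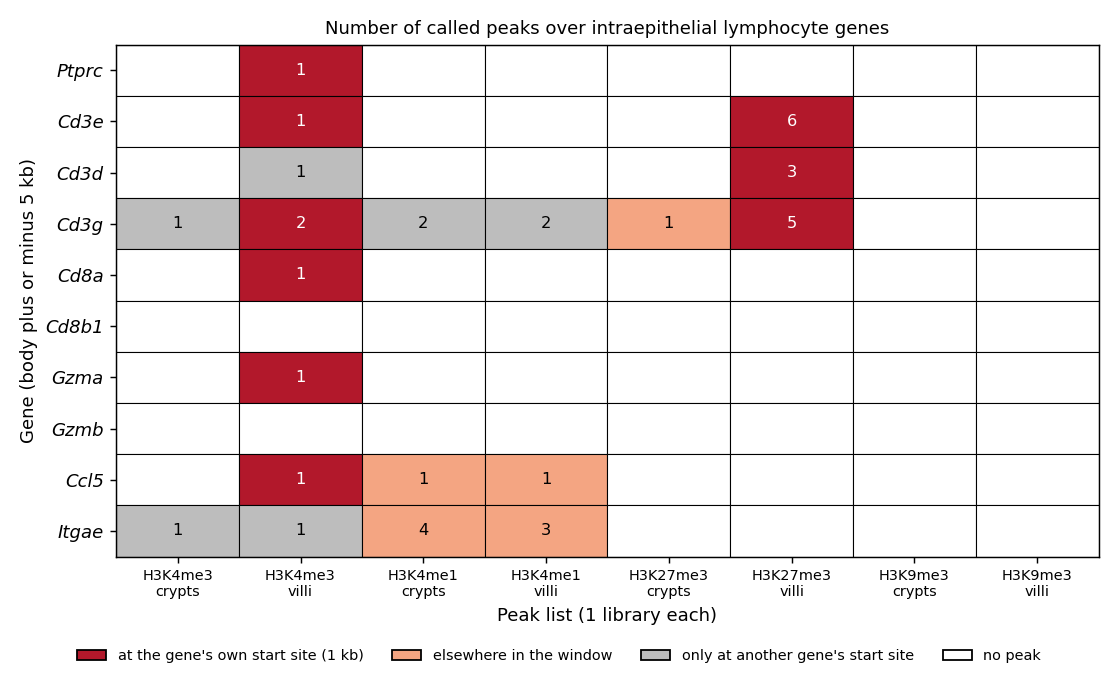
Number of called peaks over the body plus 5 kb on either side of each of the 10 genes (rows) in each of the 8 lists (columns, 1 library each). Colour gives the position of the peaks, and the villi H3K4me3 column holds 6 genes with a peak at their own start site against 0 in the crypts column. At equal list length 2 of the 6 are left.

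The sequences before 6 start sites are shown so that genes with and without a call can be compared: 5 genes with a villi H3K4me3 peak within 1 kb of a GENCODE start site, and Gzmb, which had none. Each is the 250 bases upstream of the RefSeq start site (GRCm38.p6), 5′ to 3′ on the strand of the gene, and capitals mark the letters ACCACA (the core bound by RUNX factors) and ACTTCC or CCTTCC (cores bound by ETS factors) on either strand. RefSeq promoters were matched for 7 of the 10 genes, and Cd8b1, Ccl5 and Itgae had no entry. The intervals are chr1:138175306-138175555 (Ptprc, reverse strand), chr9:45009612-45009861 (Cd3e, reverse), chr9:44980432-44980681 (Cd3g, reverse), chr6:71373177-71373426 (Cd8a, forward), chr13:113100982-113101231 (Gzma, reverse) and chr14:56262335-56262584 (Gzmb, reverse).
Ptprc: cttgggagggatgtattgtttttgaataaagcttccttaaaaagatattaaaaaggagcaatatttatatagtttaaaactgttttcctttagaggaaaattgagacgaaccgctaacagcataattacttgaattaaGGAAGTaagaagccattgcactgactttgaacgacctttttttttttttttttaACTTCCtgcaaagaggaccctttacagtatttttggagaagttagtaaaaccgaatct
Cd3e: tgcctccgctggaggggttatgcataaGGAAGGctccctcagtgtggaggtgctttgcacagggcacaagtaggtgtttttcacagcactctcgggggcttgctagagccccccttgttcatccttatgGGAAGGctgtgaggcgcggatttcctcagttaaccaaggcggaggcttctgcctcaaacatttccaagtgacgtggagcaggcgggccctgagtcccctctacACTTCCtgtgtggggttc
Cd3g: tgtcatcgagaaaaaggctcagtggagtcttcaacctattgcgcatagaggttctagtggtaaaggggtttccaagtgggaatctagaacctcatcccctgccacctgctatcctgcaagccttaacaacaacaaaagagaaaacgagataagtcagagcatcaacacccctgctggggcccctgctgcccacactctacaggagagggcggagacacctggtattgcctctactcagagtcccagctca
Cd8a: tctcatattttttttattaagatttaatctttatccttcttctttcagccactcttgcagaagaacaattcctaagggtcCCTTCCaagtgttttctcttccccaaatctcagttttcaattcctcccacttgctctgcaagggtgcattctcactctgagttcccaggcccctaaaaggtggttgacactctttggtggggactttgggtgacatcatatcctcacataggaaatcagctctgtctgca
Gzma: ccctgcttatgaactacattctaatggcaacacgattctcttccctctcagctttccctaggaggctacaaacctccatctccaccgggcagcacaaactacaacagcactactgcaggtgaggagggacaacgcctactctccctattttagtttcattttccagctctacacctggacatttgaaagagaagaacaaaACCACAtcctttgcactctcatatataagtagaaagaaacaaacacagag
Gzmb: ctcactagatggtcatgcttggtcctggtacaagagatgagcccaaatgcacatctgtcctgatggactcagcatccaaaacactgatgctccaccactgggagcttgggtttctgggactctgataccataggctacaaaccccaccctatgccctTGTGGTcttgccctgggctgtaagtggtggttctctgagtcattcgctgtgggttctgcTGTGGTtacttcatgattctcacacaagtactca

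These promoters hold few CG dinucleotides. The 8 promoters of the 7 matched genes, 2 of them for Ptprc, held between 0 and 7 CG dinucleotides in 250 bases, with a median of 2.5. The median over all RefSeq promoters of the same length was 6. It was 16 for genes with an H3K4me3 peak in both compartments, 9 for genes with one in villi alone, 8 for genes with one in crypts alone and 3 for genes without one. Of all promoters, 57.0% hold 7 CG dinucleotides or fewer. Cd3e had the most, with 7, and Cd3d and Cd8a had 0. An ETS core was found before Ptprc (112 and 58 bases before the start site), Cd3e (223, 121 and 18 bases), Cd3d (199 bases) and Cd8a (170 bases), and 41.6% of 32851 promoters hold one. The RUNX core lay before Gzma, 50 bases from the start site, and at 2 places before Gzmb, 93 and 34 bases away, and is held by 14.0% of all promoters. The E-box letters CANNTG, which before Cd8a share 1 base with the ETS core, were in 7 of the 8 member promoters and in 66.2% of all, and TATAAA was in 1 of 8, that of Ptprc shown here, and in 12.4% of all. Of the 250 bases shown, the villi H3K4me3 peak covered 138 before Cd3e and 40 before Ptprc, and 0 before Cd3g, Cd8a and Gzma, where it began inside the gene.

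Ptprc encodes CD45, the tyrosine phosphatase present on all nucleated blood cells. The gene (ENSMUSG00000026395.16) lies on chromosome 1 from 138062861 to 138175708 on the reverse strand. Its villi H3K4me3 peak ran from 138173738 to 138175345 (1608 bp), from 39 bp before to 1568 bp after the first coding start site, over 211 bases of exon and otherwise intron. Its score, taken as −log10 p, was 21.9, which ranks 13853 among 16977 villi peaks and is the highest of the 6. The nearest H3K4me3 peak of crypts was 274 kb from the start site. No H3K4me1, H3K27me3 or H3K9me3 peak touched the 122848 bp of the Ptprc window in either compartment.

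The CD3 chains Cd3e, Cd3d and Cd3g couple the T cell receptor to its signalling enzymes, and their genes lie within 40.1 kb of chromosome 9 (44969572 to 45009627). Cd3g and Cd3d face away from each other with their start sites 1355 bp apart, so that neighbouring windows share peaks. The villi H3K4me3 peak of Cd3e (ENSMUSG00000032093.7, 44998740 to 45009627, reverse strand) ran from 45008569 to 45009749, over 1181 bp and across the start site, with a score of 10.8. The peak of Cd3g (ENSMUSG00000002033.14, 44969572 to 44980431, reverse strand) ran from 44978096 to 44980275, over 2180 bp from 156 bp after the start site, with a score of 11.0. Cd3d (ENSMUSG00000032094.8, 44981786 to 44987339, forward strand) had no H3K4me3 peak of its own, and that of Cd3g ended 1511 bp before its start site. In crypts no H3K4me3 peak was listed between 44966396 and 45040276, a stretch of 73.9 kb that holds all 3 genes.

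H3K27me3 was also called over the CD3 genes, with more listed peaks in villi. Between the ends of Cd3g and Cd3e, villi had 10 H3K27me3 peaks covering 47.9% of the sequence and crypts 1 peak covering 8.75%. The villi list is the longer one for this modification, with 13797 peaks against 7611, and at equal list length 1 of the 10 genes instead of 3 had a villi H3K27me3 peak within 1 kb of a start site. The peaks carry numbers in order of position, and 8 numbers are missing from the crypts list in the 160 kb after 44976249, which hold the start sites of Cd3g, Cd3d and Cd3e. Calls that are not in the crypts list may thus have lain over these genes. Of the 10 genes, 3 had an H3K27me3 peak in their window in villi (23.0% of all genes) and 1, Cd3g, in crypts (17.9%). In villi alone it was 2 (5.84%). The same 3 of 10, the CD3 genes, had one within 1 kb of a start site in villi (16.0% of all genes). In crypts 0 of 10 had one (13.0%), and over all protein-coding genes 3.61% had one in villi alone. The crypts peak, from 44972744 to 44976249 inside Cd3g, overlapped a wider villi peak from 44972761 to 44978736. At Cd3e the villi H3K27me3 peak from 45008434 to 45010101 contained the whole H3K4me3 peak, and at Cd3g the H3K4me3 peak shared 1780 of its 2180 bp with H3K27me3 peaks. The Cd3d peak, from 44984011 to 44985844, covered the second coding start site of that gene, with a score of 10.2. Peaks of both modifications at a start site were found for 2 of the 10 genes in villi (7.84% of all genes) and 0 in crypts (6.57%), and neither of these villi H3K4me3 peaks, at Cd3e and Cd3g, is left at equal list length. Since the lists come from separate libraries of a mixture of cells, they do not tell whether both modifications were on the same cells. Over the other 7 genes no H3K27me3 peak was called in either compartment, as over 76.3% of all genes.

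**Figure D2:**
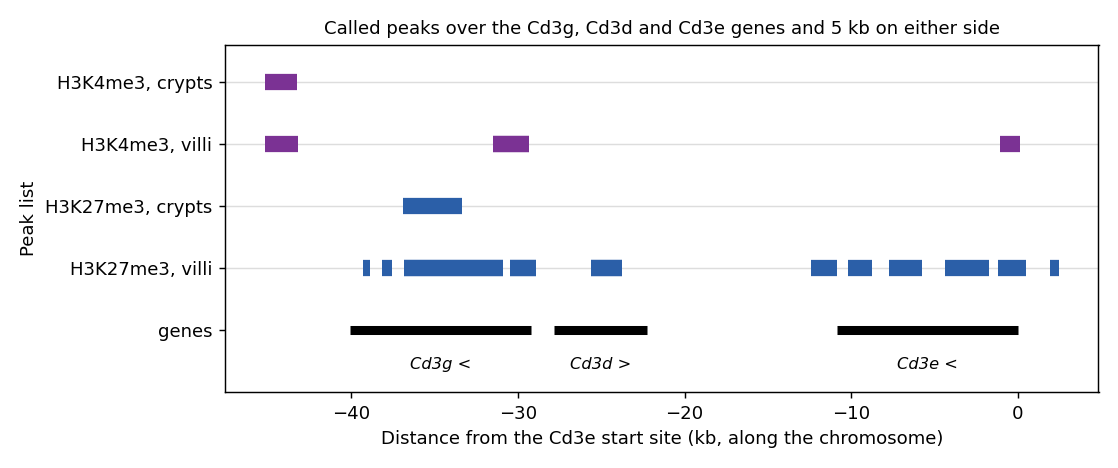
Called peaks of H3K4me3 and H3K27me3 in crypts and villi over the windows of Cd3g, Cd3d and Cd3e, as distance from the Cd3e start site in kb along the chromosome, with genes as black bars and their direction as arrowheads. Villi had H3K4me3 peaks inside Cd3g and at the start of Cd3e, which crypts lacked, and 10 H3K27me3 peaks between the ends of the genes against 1. Neither H3K4me3 peak is left at equal list length, and the villi H3K27me3 list is longer (13797 peaks against 7611). The H3K4me3 peak at the left, in both compartments, is that of Ube4a.

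Cd8a and Cd8b1 encode the alpha and beta chains of the CD8 co-receptor, whose genes follow each other on chromosome 6 with 35.9 kb between them. The villi H3K4me3 peak of Cd8a (ENSMUSG00000053977.13, 71373427 to 71379173, forward strand) ran from 71373664 to 71374492 (829 bp, score 10.9). It covered 334 bases of exon. It began 237 bp after the first coding start site and 111 bp after the second. Cd8b1 (ENSMUSG00000053044.8, 71322788 to 71337494, forward strand) had no peak of the 4 modifications in its window in either compartment, and its nearest H3K4me3 peak was 49.2 kb from the start site in villi and 49.4 kb in crypts. A peak was thus listed in villi at the alpha chain gene and not at the beta chain gene, but the Cd8a peak is not among those left at equal list length, and 1 peak number is missing from the villi list in the 100.1 kb around the Cd8b1 start site.

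Gzma and Gzmb encode the serine proteases granzyme A and granzyme B of cytotoxic granules, and Ccl5 a chemokine that attracts T cells. Gzma (ENSMUSG00000023132.8, chromosome 13 from 113093825 to 113100981, reverse strand) had a villi H3K4me3 peak from 113100147 to 113100707, 561 bp wide with a score of 14.3 and 274 bp after the start site. Ccl5 (ENSMUSG00000035042.2, chromosome 11 from 83525778 to 83530518, reverse strand) had one from 83528235 to 83530174, 1940 bp wide with a score of 11.3 and 344 bp after the start site. Both peaks lay inside their gene, with 126 bases of exon in Gzma and 112 in Ccl5. Gzmb (ENSMUSG00000015437.5, chromosome 14 from 56258838 to 56262260, reverse strand) had no peak in its window in either compartment, and its nearest H3K4me3 peak was over 100 kb away, at 102.4 kb in crypts and 102.5 kb in villi. Upstream of Ccl5 an H3K4me1 peak was called in both compartments, at 83534390 to 83535304 in the crypts list and 83534272 to 83535217 in the villi list, with its near end 3872 bp and 3754 bp before the start site. It was the nearest such peak to any of the 10 start sites and was listed in both compartments. The Ccl5 H3K4me3 peak, listed in villi, is not left at equal list length.

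Itgae encodes the alpha chain of CD103. At its start site (ENSMUSG00000005947.11, chromosome 11 from 73090583 to 73147446, forward strand) no peak of the 4 modifications lay within 1 kb in either compartment, and the nearest H3K4me3 peak was 41.3 kb away in both. The wide H3K4me3 peaks inside the gene, 3040 bp with a score of 645 in crypts and 2489 bp with a score of 393 in villi, overlapped the start site of Haspin, a kinase gene nested in Itgae on the other strand. The H3K4me1 peaks beside it, 6004 bp in crypts and 6932 bp in villi, reached into the same place. Narrower H3K4me1 peaks within Itgae were not shared. Crypts had one of 742 bp from 73116943 to 73117684 (score 11.1) and one of 361 bp at the Haspin start site (score 10.4), and villi one of 474 bp from 73122830 to 73123303 (score 10.7). Over all 10 genes the H3K4me1 lists gave the same 3 genes in crypts (69.2% of all protein-coding genes) and villi (68.8%), Cd3g, Ccl5 and Itgae, and 0 with a peak within 1 kb of a start site (57.9% and 56.1%). For H3K9me3, 0 of 10 windows held a peak in crypts (3.90%) or villi (3.12%).

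**Figure D3:**
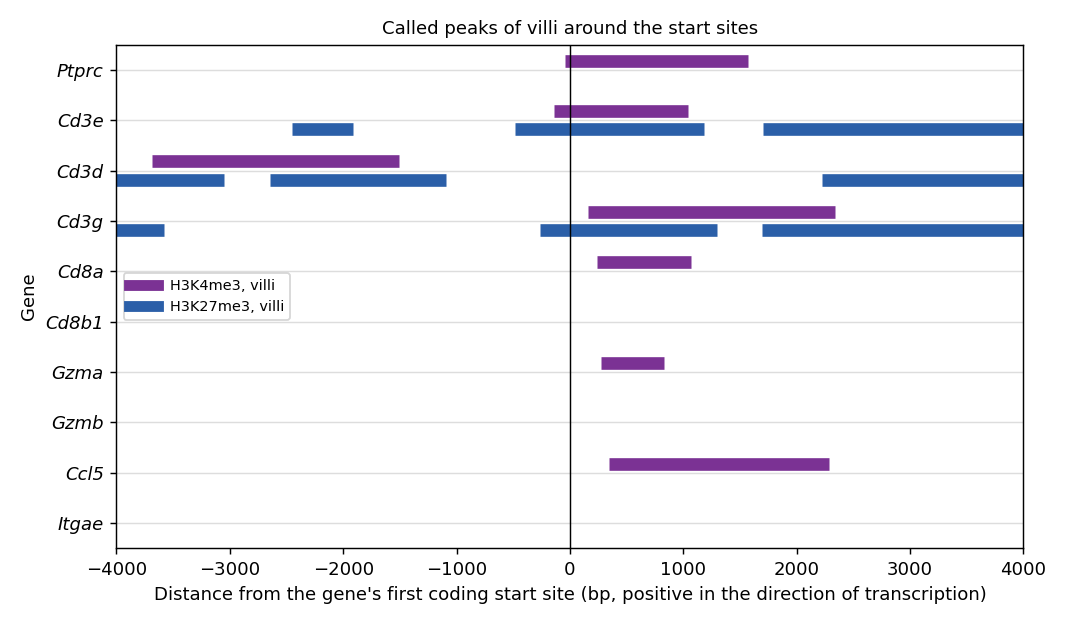
Villi H3K4me3 and H3K27me3 peaks within 4 kb of the outermost coding start site of each gene, in bp, positive in the direction of transcription. The 6 genes with a peak at the start site have most of it after that site, and the H3K4me3 bar in the Cd3d row is the peak of Cd3g.

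The villi peaks of these genes stand at the weak end of their list. The scores of the 6 peaks ran from 10.8 to 21.9, against a calling threshold of 10, and their median was at percentile 2.68 of the villi list, whereas the median of 12226 villi H3K4me3 peaks within 1 kb of a protein-coding start site was at percentile 63.0. Promoter peaks of genes marked in villi alone had a median score at percentile 8.56 and a median width of 674 bp. The lymphocyte gene peaks were wider than these, with a median of 1395 bp and a range from 561 bp to 2180 bp. They were narrower than the 12226 promoter peaks, whose median width was 1767 bp.

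**Figure D4:**
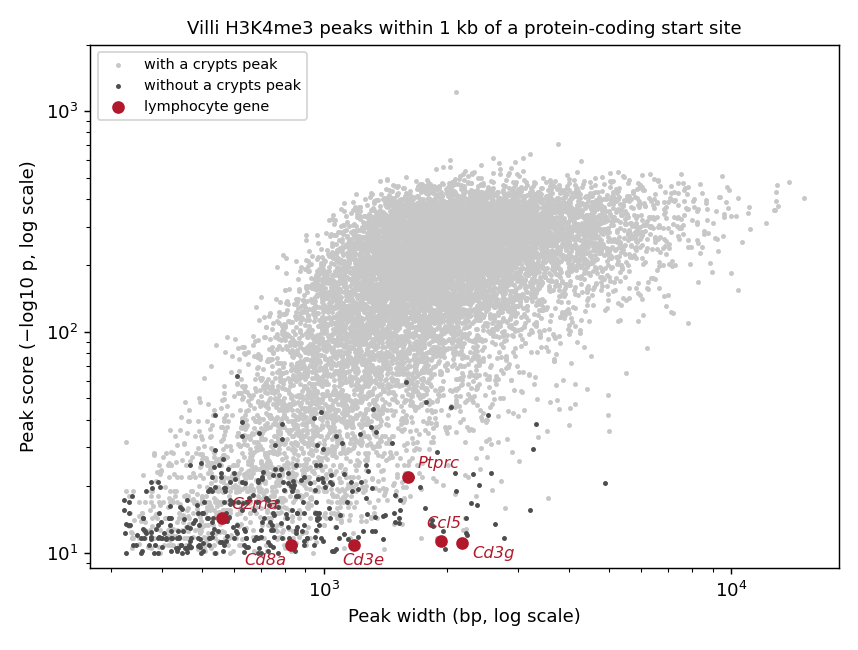
Width in bp against score (−log10 p) of villi H3K4me3 peaks within 1 kb of a protein-coding start site, on log scales, split by overlap with a crypts peak. The 6 lymphocyte gene peaks, in red, have scores from 10.8 to 21.9 and widths from 561 bp to 2180 bp.

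With scores this low the calls depended on the length of the lists. The villi list was longer by 488 peaks, and after these lowest-scoring peaks were removed, which makes both lists 16489 long, Ptprc and Gzma were left of the 6. None of the 6 was in the top 50% of the villi list. The peaks are numbered in order of position with gaps, up to 17844 for the 16489 H3K4me3 peaks of crypts, and a gap was read as a call that is not in the list. Between the crypts H3K4me3 peaks on either side of the CD3 genes no number is missing, and none is missing between those on either side of Cd8a and Cd8b1. In the stretches that hold Ptprc, Gzma and Ccl5, of 716 kb, 257 kb and 116 kb, 1 number each is missing, and the position of that call is unknown. In the villi list numbers are missing around each of the 4 start sites without a peak, 1 in 28.3 kb at Cd3d, 1 at Cd8b1, 2 in 464 kb at Gzmb and 1 in 86.9 kb at Itgae, so an unlisted villi call may lie over these genes too.

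Other genes of leukocytes gave a related pattern. Counts were taken on 3 lists, of lymphocyte receptor and signalling genes, of cytotoxic and tissue residency genes and of pan-leukocyte genes. Of their 69 genes, 11 had an H3K4me3 promoter peak in villi alone (1.27% of all genes) and 0 in crypts alone (1.07%). In both it was 13 (12435 of all 21951 genes) and in neither 45 (41.0%). These lists were not recounted at equal list length. The villi peaks of Lat, Il2rb and Vav1 score 10.2, 10.2 and 10.4. All are below that of Ccl5 (11.3), which is not left at equal length, and Vav1 would then have a peak in crypts alone. The signalling list gave 1 of 21, the adaptor gene Lat, with a score of 10.2. The 3 genes of this list with a peak in both compartments encode transcription factors of T cells, Bcl11b (8126 bp in crypts, 6630 bp in villi), Gata3 (1588 bp and 3183 bp) and Tcf7 (2018 bp and 1996 bp). The CD3 zeta chain gene Cd247 and the kinase genes Lck and Zap70 had no H3K4me3 peak within 1 kb of a start site. The T cell receptor constant genes Trac, Trdc, Trbc1 and Trbc2, counted among the 45 in neither, had none at the annotated start of the constant segment. The start of a whole receptor transcript was not examined, so these genes do not tell whether receptor genes were marked.

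The cytotoxic and residency list gave 5 of 30, Nkg7, Cd7, Itgb7, Il2rb and Runx3. Nkg7 encodes a granule protein, Cd7 a surface receptor of T and NK cells, Itgb7 the integrin chain that pairs with CD103, Il2rb a receptor chain for IL-2 and IL-15 and Runx3 a factor needed for CD8 T cells. Their villi peaks had scores from 10.2 at Il2rb to 13.8 at Nkg7, and that of Cd7 was the widest at 2761 bp. Prf1, which encodes perforin, and the NK receptor genes Klrk1 and Klrd1 had none. Of the 5 genes of this list with a peak in both compartments, the widest were those of Cd160 (3362 bp in crypts, 6086 bp in villi), Ccr9 (3388 bp and 4315 bp) and Ahr (3191 bp and 3091 bp). Unlike those of the members, peaks of list genes were not checked for start sites of other genes.

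The pan-leukocyte list gave 5 of 18, Laptm5, Cd52, Rac2, Cytip and Dock2. Laptm5 encodes a lysosomal protein of blood cells (2381 bp, score 16.4), Cd52 a small surface glycoprotein (1963 bp, score 12.5), Rac2 a GTPase of blood cells (1042 bp, score 22.6), Cytip a binding partner of cytohesin (2623 bp, score 13.5) and Dock2 an activator of Rac in lymphocytes (817 bp, score 23.0). A peak in both compartments was listed for 5 genes. It was wider in villi at Coro1a, an actin-binding protein of leukocytes (630 bp in crypts, 2257 bp in villi), and Ikzf3 (558 bp and 1345 bp), and narrower at Vav1 (832 bp and 490 bp), Lcp1 (957 bp and 863 bp) and Ikzf1 (1141 bp and 1097 bp).

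Lists of other immune cells were counted in the same way. Among 10 B cell genes and 13 macrophage and dendritic cell genes, 0 had one in villi alone (1.27% of all genes) or in crypts alone (1.07%) and 2 had one in both (12435 of all 21951 genes), Pax5, a B cell transcription factor, and Cd14, a receptor for bacterial lipopolysaccharide. Ms4a1, Csf1r and Adgre1, which mark B cells and macrophages, had none. Mesenchymal and endothelial genes gave 2 of 12 in villi alone, the collagen gene Col1a1 (score 11.7) and the receptor gene Kdr (score 24.0), 1 in both, Pdgfra, and 9 in neither. Weak calls in villi were therefore not restricted to genes of leukocytes. Of these 12 genes 5, Col1a1, Kdr and Pdgfra among them, had an H3K27me3 promoter peak in both compartments, against 2723 of all 21951 genes. So had 4 of 30 cytotoxic and residency genes, Runx3 among them, and 2 of 21 signalling genes, Gata3 among them. It was 5 of 18 for pan-leukocyte genes, with Coro1a, Ikzf1, Ikzf3 and Lcp1. Whether the amount of other cells in the villi preparation, or its depth, had a part in the calls was not tested.

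**Figure D5:**
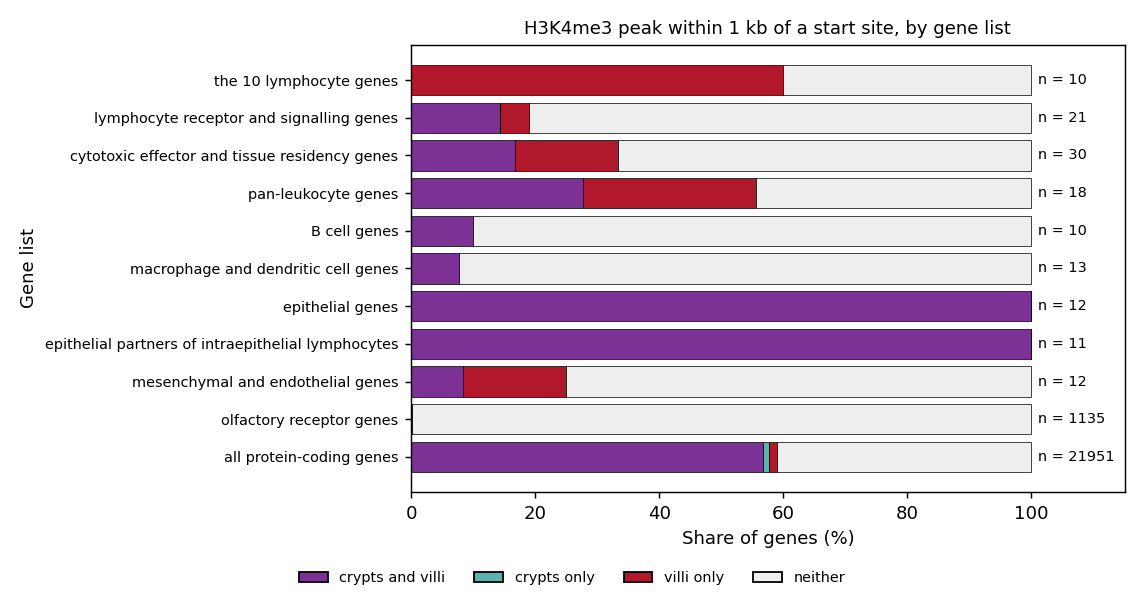
Share of the genes of each list, in percent, with an H3K4me3 peak within 1 kb of a start site in crypts and villi, crypts only, villi only or neither, with the number of genes at the right. The 10 lymphocyte genes have 6 in villi only (2 are left at equal list length), the B cell and macrophage lists 0, and all protein-coding genes 1.27%.

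Genes through which epithelial cells hold and feed these lymphocytes formed a further list. All 11 of them had an H3K4me3 promoter peak in crypts and in villi, as had 12435 of all 21951 protein-coding genes. Among them were Cdh1, which encodes the E-cadherin bound by CD103 (4724 bp and 5113 bp), Il15, a growth factor for these cells (2393 bp and 5294 bp), Ccl25, the ligand of CCR9 (4251 bp and 4634 bp), and the butyrophilin-like gene Btnl6 (3741 bp and 5051 bp). Among the villi peaks of this list the lowest score was 108, at Btnl2, against a highest of 21.9 at the lymphocyte genes.

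By presence or absence of a peak over the window in the 8 lists, the commonest pattern among the 10 genes was an H3K4me3 peak in villi and nothing else, shown by Ptprc, Cd8a and Gzma. Of all protein-coding genes 30 have this pattern. They include Ang4, Tnc, Vegfd and the mitochondrial genes mt-Cytb, mt-Nd4, mt-Nd5 and mt-Nd6, so the pattern is not particular to leukocyte genes. Of the 69 genes on the 3 lists, Cd7, Il2rb and Laptm5 matched it in all 8 lists. The peaks of Cd8a and Il2rb are among the lowest-scoring of the villi list, at percentiles 2.15 and 0.872. That of Cd8a is not left at equal list length, and neither is the lower-scoring one of Il2rb. The order of the patterns and the match of Il2rb thus depend on the length of the list.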

How the data were processed

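Peak lists of 8 libraries, crypts and villi for H3K4me3, H3K4me1, H3K27me3 and H3K9me3, were analysed. The authors mapped the reads to the mouse (mm10) and Drosophila (dm6) genomes, dropped duplicates and ambiguous reads, and ran MACS2 on each library (the names of the lists pair it with its input) with a p-value limit of 1e-10 (the submitters' processing notes name Bowtie 1.1.2 and MACS2 2.1.1). The deposited score column is unnamed. Its lowest values, just over 10, are those of a −log10 p-value at the limit of the authors, and it was used as such within a list only, although it may be a q-value on that scale. The lists hold no read counts, so depth is unknown, and no spike-in scaling was applied here. Of the H3K9me2 lists (6 and 3 regions) no region touched a member window, and the 2 inputs were not used here.

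Members and gene lists were chosen with earlier results of these data known. Peaks were assigned in Python 3.11.15 with NumPy 2.4.6 at an overlap of 1 bp, to gene bodies plus 5 kb on either side and to the 1 kb on either side of start sites of protein-coding transcripts. T cell receptor constant genes, which are not annotated as protein-coding, were used in the lists only, with their own start sites. The overlap code was tested on simulated data. Figures were drawn with Matplotlib 3.10.9. Named are all members, list genes with an H3K4me3 promoter peak in 1 compartment, up to 4 with the widest peaks of each list, list genes with the commonest member pattern, genes whose start site lies in a peak of a member window and, chosen after their values were seen, Btnl2, Vav1, Lcp1, Ikzf1, Ikzf3 and list genes without a peak. Genes of the commonest pattern that are on no list were also chosen after their values were seen. As each group is 1 library, no test was possible. Alternatives covered the window, the overlap, the score, peaks at other genes and the promoter width, and equal list lengths were added after the data were seen.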

Additional observations from a re-analysis of the deposited data

How the results depend on the processing

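With 500 bp around the start site, 6 genes had a villi H3K4me3 promoter peak and 0 a crypts one, and with 5 kb 7 and 0. With the top 50% of each list by score, 0 villi H3K4me3 and 0 villi H3K27me3 promoter peaks were left. With the villi list shortened to the length of the crypts list, chosen after the data were seen, 2 and 1 were left. At 5 kb, 1 gene had a crypts H3K27me3 promoter peak. Over the whole window, the count of genes with an H3K4me3 peak was 1 in crypts with the gene body alone, 0 in crypts without peaks at start sites of other genes, and 2 in villi in the top 50%. For H3K4me1 it was 1 in crypts and 1 in villi with the gene body alone, 5 in crypts with 10 kb on either side, and 1 in villi in the top 50%. For H3K27me3 in crypts it was 2 with 10 kb and 0 in the top 50%. In the top 50%, H3K4me3 promoter peaks were left at 1 signalling gene in crypts and 1 in villi, 2 cytotoxic and residency genes in crypts and 2 in villi, and 0 pan-leukocyte, 0 B cell, 0 mesenchymal and endothelial genes in either and 0 olfactory receptor genes in crypts. No paired analysis was possible because each group has 1 library. The lists do not give depth, and its part in calls near the threshold was not tested.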

Other observations

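Some genes with an H3K4me3 promoter peak in villi alone, out of 278 such genes, were picked after their values were seen, without a count of how many of the 278 are of one kind. Ptprcap, whose protein binds CD45, had a peak of 963 bp with a score of 14.3. The adaptor gene Skap1 had 420 bp and 12.5, the transcription factor gene Stat4 390 bp and 11.7, the GTPase gene Rhoh 1120 bp and 12.1 and the integrin gene Itgb2 891 bp and 11.3. Of the 8 protein-coding Gimap genes, GTPases of lymphocytes on chromosome 6, 4 had a peak in villi alone (1.27% of all protein-coding genes), 2 in both and 2 in neither. The villi peaks ran over 2231 bp at Gimap4 (score 14.3), 1395 bp at Gimap7 (14.7), 1642 bp at Gimap5 (21.9) and 2231 bp at Gimap3 (12.3). Gimap1, with 2071 bp in crypts and 1727 bp in villi, and Gimap9, with 1160 bp and 1084 bp, were marked in both compartments. The same 278 genes also held Ang4, an antimicrobial gene of epithelial cells, with 982 bp and a score of 11.7.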
